A study of Mus musculus with 12 samples.

Results

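Inflammasome, pyroptosis and necroptosis genes were followed across mouse prostate tumors that had grown with or without added stromal cells and with or without arsenic in the drinking water. The 10 genes were Casp1, Casp4, Casp8, Casp12, Gsdmd, Zbp1, Mlkl, Ripk3, Aim2 and Il18, chosen by symbol as the rows of the count table whose Ensembl identifiers carry those names, and they are 10 of 55401 genes in the table. All 10 passed the filter on low counts. Tumors grew from TC2Ras, a mouse prostate cancer cell line carrying Ras, and were taken at day 21. Each group had 3 tumors, each tumor being the tissue of both flanks of 1 mouse. Control tumors came from 125000 TC2Ras cells alone in mice drinking water with 0 ppb inorganic arsenic (iAs), and ASC tumors from TC2Ras cells mixed with 1% ASC-GFP cells at 0 ppb. As300 tumors came from TC2Ras cells alone in mice given 300 ppb iAs, and ASC_As300 tumors from the cell mixture at 300 ppb iAs. Mice of all 4 groups ate AIN-76A chow low in arsenic and drank Milli-Q water before implantation. ASC-GFP cells are primary adipose stromal cells from male transgenic C57BL/6 mice that express GFP. The age and strain of the tumor-bearing mice are not given in the sources used here. The labels name the adipose stromal cell as the cell type, whereas the protocols in the same labels describe whole tumors, and the libraries are treated as tumors.

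Pyroptosis and necroptosis are lytic forms of cell death. In pyroptosis, a sensor such as AIM2, which binds DNA in the cytosol, assembles an inflammasome that activates caspase-1, or caspase-4 (caspase-11 in the mouse) is activated by bacterial lipopolysaccharide in the cytosol. These caspases cut gasdermin D, whose released end forms pores in the plasma membrane, and caspase-1 also matures interleukin-18. In necroptosis, the kinase RIPK3 is engaged by RIPK1 or by ZBP1, a sensor of left-handed nucleic acids, and phosphorylates MLKL, which then breaks the membrane, while caspase-8 holds this pathway in check. Many of these genes are inducible by interferons, and much of their expression in a tumor can come from macrophages and other leukocytes. Messenger RNA reports none of the cutting or phosphorylation steps.

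The libraries held 39157647 to 55168642 counts, and the least abundant member, Il18, had at least 96 counts in every tumor. Control replicate 1 stood apart on the first principal component. Its 7 B and plasma cell markers summed to 193 CPM (counts of a gene relative to the scaled library total), against 4.70 and 5.99 CPM in the other Control tumors, and its 8 T cell markers to 66.3 CPM against 13.6 and 12.6 CPM. Without it, Zbp1 alone of the 10 genes was still called in ASC and in ASC_As300 against Control and none in As300, and over both iAs levels Aim2 was called in addition. Other tumors differed in composition too, and Control replicate 2, ASC replicate 2 and As300 replicate 1 were highest on the second principal component. The 5 skeletal muscle markers summed to 1461 CPM in Control replicate 2 and 1478 CPM in As300 replicate 1, and to 1.26 to 295.5 CPM elsewhere. The 5 adipocyte markers summed to 508 CPM in ASC replicate 2 and to 31.0 to 269 CPM elsewhere. The 10 stromal markers summed to between 3758 and 6466 CPM and the 10 macrophage markers to between 1415 and 2511 CPM. Of the 7 epithelial markers, the defining genes Epcam and Cdh1 reached at most 1.34 and 2.51 CPM in any tumor, while Krt8 was at 24.1 to 337 CPM.

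Across the 10 genes, addition of ASC went with higher expression of Zbp1 at either iAs level and, over both levels jointly, of Casp1 and Casp12. In the comparison of ASC with Control, 1 of the 10 genes (Zbp1) rose and none fell, where 0.706% of the 20818 genes tested rose. In ASC_As300 against Control, again 1 (Zbp1) rose, against 0.783% of all genes. In ASC_As300 against As300, 4 rose (Zbp1, Casp1, Casp12 and Mlkl), against 0.793% of all genes. Over both iAs levels, Zbp1, Casp1 and Casp12 rose with ASC, 3 of 10 where 1.36% of all genes did. A gene was said to rise or fall when edgeR's quasi-likelihood F test gave a Benjamini-Hochberg adjusted p under 0.05 and the fold change was at least 1.5. None of the 10 passed in As300 against Control, where 0.701% of all genes rose and 0.355% fell. These shares, from 146 and 74 genes, did not hold when single tumors were left out. No gene was called up or down without Control replicate 1, 2 or 3 or without ASC_As300 replicate 1 or 3. The ASC_As300 tumors are not part of this comparison and enter it through the joint fit of all groups. Without As300 replicate 2 there was 1 call in all, and the correction for GC content of each tumor likewise left 1, while DESeq2 called 495 up and 321 down. At an unadjusted p under 0.05 edgeR put 1 of them higher there (11.2% of all genes) and 2 lower (13%). In ASC_As300 against ASC edgeR called none of the 10 and 0% of all genes, and 1 member was higher at an unadjusted p under 0.05 (1.47% of all genes). For the iAs effect over both ASC levels it again called none of the 10 and 0% of all genes, with 1 member higher at an unadjusted p under 0.05 (7.51% of all genes). For the interaction of ASC with iAs it called none of the 10 and 0% of all genes, and at an unadjusted p under 0.05 there was 1 member above 0 (7.08% of all genes) and 1 below (6.55%). DESeq2 called none of the 10 in these last 4 comparisons either. The comparisons with Control share the 3 Control tumors, whereas ASC against Control and ASC_As300 against As300 have no tumor in common.

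**Figure D1:**
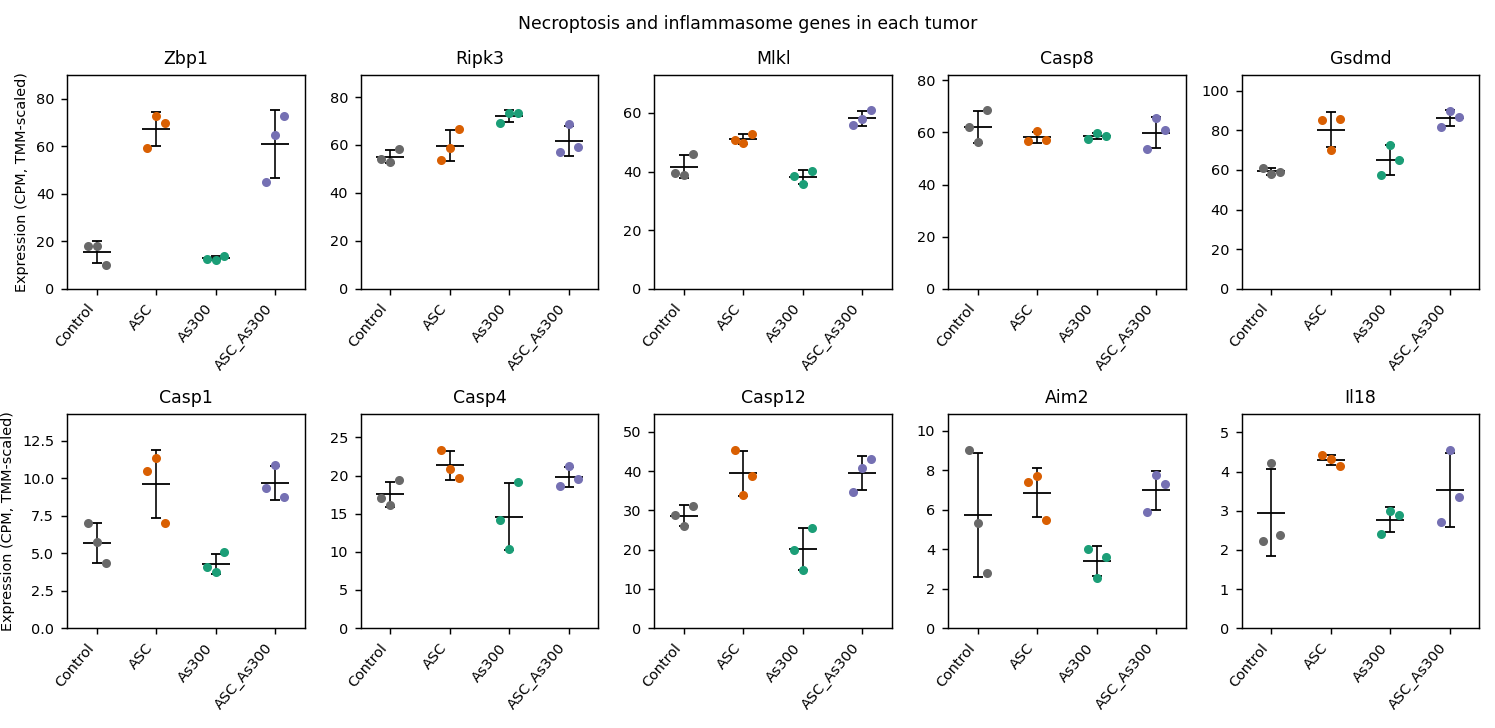
CPM of each of the 10 genes in each tumor (points, 3 per group), with the group mean and SD (bars), on linear axes from 0. Zbp1 was at 10.1 to 18.1 CPM in the tumors without ASC and at 45.0 to 72.9 CPM in those with ASC, while Casp8 stayed between 53.8 and 68.5 CPM in all tumors.

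The median log2 fold change of the 10 genes was 0.37 in ASC against Control, 0.37 in ASC_As300 against Control and 0.52 in ASC_As300 against As300, beside medians of 0.00, -0.02 and 0.00 over all genes tested. In As300 against Control it was -0.19, beside -0.03 over all genes. An unadjusted p under 0.05 with higher expression was reached by 8 of the 10 genes in the ASC effect over both iAs levels, against 6.93% of all genes. All tumors of one group lay above all tumors of the other for 6 of the 10 genes in ASC against Control (9.94% of all genes), for 5 in ASC_As300 against Control (13.5%) and for 6 in ASC_As300 against As300 (11.3%). For 4 of the 10 (Zbp1, Casp1, Casp12 and Mlkl), the 6 tumors with ASC all lay above the 6 without, as did 1.68% of all genes. In bulk tumors, fewer cells of a type and less RNA per cell cannot be told apart, for these and all later differences.

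**Figure D2:**
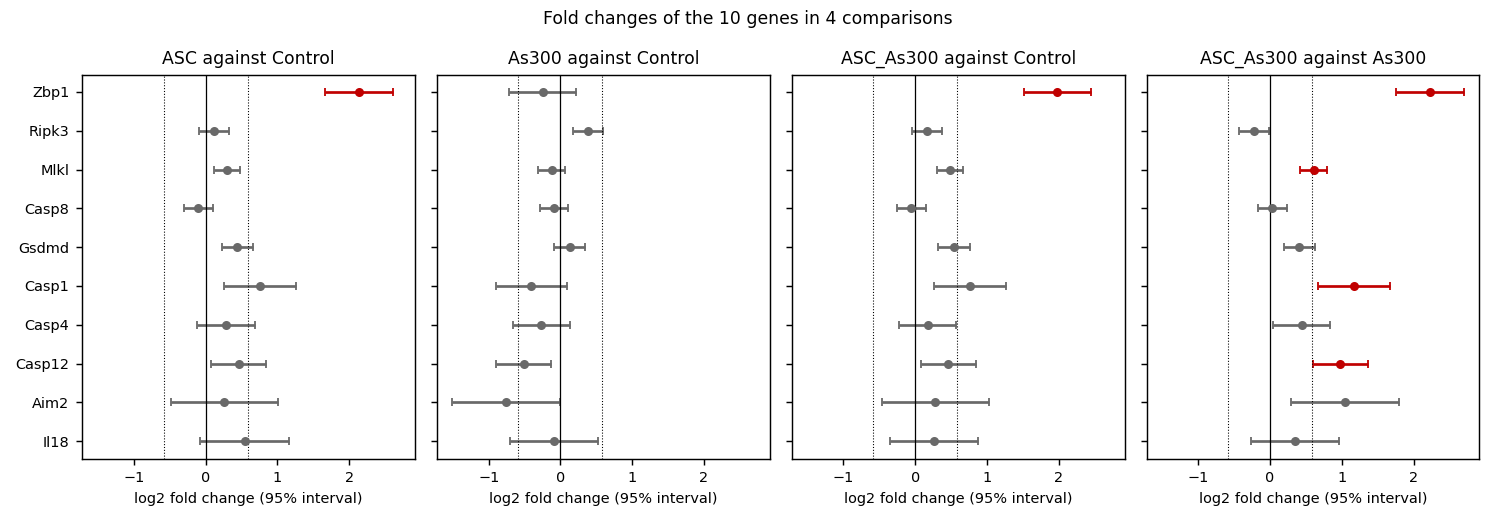
Log2 fold changes with 95% intervals of the 10 genes in 4 comparisons, red where the gene was called and grey where not, with dotted lines at 1.5-fold. Zbp1 stood at 2.13, 1.98 and 2.23 in the 3 comparisons where ASC was added and at -0.25 in As300 against Control.

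Zbp1, the sensor that can start necroptosis through RIPK3 and is inducible by interferon, changed most among the 10. It was at 18.0, 18.1 and 10.1 CPM in the 3 Control tumors and at 59.5, 72.9 and 70.1 CPM in the ASC tumors. In As300 it was at 12.7, 12.3 and 14.0 CPM, and in ASC_As300 at 45.0, 64.7 and 72.9 CPM. No tumor with ASC overlapped a tumor without, whichever water the mice drank. The rise was 4.38-fold in ASC against Control (log2 2.13, SE 0.22, edgeR adjusted p = 0.000481), 3.95-fold in ASC_As300 against Control (log2 1.98, SE 0.22, adjusted p = 0.000652) and 4.69-fold in ASC_As300 against As300 (log2 2.23, SE 0.22, adjusted p = 0.000299). Over both iAs levels it was 4.53-fold (log2 2.18, SE 0.15, adjusted p = 8.06e-06), which placed Zbp1 at rank 14 of the 20818 genes by p. Without Control replicate 1 the log2 changes against Control were 2.27 in ASC and 2.11 in ASC_As300. With iAs alone, Zbp1 differed from Control by -0.25 (95% interval -0.71 to 0.22, adjusted p = 0.54). The difference between the ASC change at 300 ppb and that at 0 ppb was 0.10 on the log2 scale with a 95% interval of -0.55 to 0.75 (adjusted p = 0.92), and its sign turned when single tumors were left out.

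Mlkl, the executioner that breaks the membrane in necroptosis, was at 39.7, 39.0 and 46.1 CPM in Control and at 50.7, 49.8 and 52.9 CPM in ASC. In As300 it was at 38.4, 35.8 and 40.3 CPM and in ASC_As300 at 55.7, 57.9 and 60.9 CPM. The spread within a group was small, and the groups with ASC lay wholly above those without. Mlkl rose 1.52-fold in ASC_As300 against As300 (log2 0.61, SE 0.09, edgeR adjusted p = 0.00295), just past the fold threshold, and the call was kept in 14 of 21 alternatives of the processing. It was lost to a fold under 1.5 without As300 replicate 2 (log2 0.57, adjusted p = 0.0236) and without ASC_As300 replicate 3 (log2 0.58, adjusted p = 0.0234). Against Control the change was 1.40-fold in ASC_As300 (log2 0.48, SE 0.09, adjusted p = 0.0165), short of the fold threshold, and 1.23-fold in ASC (log2 0.30, SE 0.09, adjusted p = 0.15). Without Control replicate 1 the former became 0.46 with an adjusted p of 0.0553. Over both iAs levels it was 1.37-fold (log2 0.45, SE 0.06, adjusted p = 0.00103). The change with ASC was larger by 0.31 on the log2 scale in mice given iAs than in those without (unadjusted p = 0.0238), a difference that did not pass the correction over all genes (adjusted p = 0.33). In ASC_As300 against ASC, Mlkl differed by 0.19 (unadjusted p = 0.0482, adjusted p = 1), with the 3 ASC_As300 tumors above the 3 ASC tumors, as was so for 4.17% of all genes.

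Ripk3, the kinase between ZBP1 or RIPK1 and MLKL, had another order of groups than Zbp1 and Mlkl, with As300 highest. Control tumors had 54.3, 52.9 and 58.3 CPM and As300 tumors 69.2, 73.5 and 73.4 CPM. ASC tumors had 53.6, 58.9 and 66.5 CPM and ASC_As300 tumors 57.1, 68.8 and 59.3 CPM. The As300 group lay above all 9 other tumors. Its difference from Control was 1.31-fold (log2 0.38, SE 0.10, unadjusted p = 0.00162, edgeR adjusted p = 0.0515), which missed both thresholds, and 14.5% of all genes had As300 groups wholly above Control. Without Control replicate 1 the log2 change was 0.39 and the adjusted p 0.0947. It ran from 0.37 to 0.45 when 1 tumor was left out, and from 0.27 to 0.45 over all alternatives of the processing. In ASC_As300 against As300 the log2 change was -0.22 (SE 0.10, adjusted p = 0.47), the one negative value among the 10 in that comparison, with ASC_As300 wholly below As300 as in 8.37% of all genes. Over both ASC levels, iAs went with a log2 change of 0.22 (SE 0.07, unadjusted p = 0.00736, adjusted p = 0.19). The interaction was -0.34 (SE 0.14, unadjusted p = 0.0286, adjusted p = 0.33), so that the smaller iAs difference in the presence of ASC was not shown across the whole table.

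Casp8, which cleaves RIPK1 and RIPK3 and starts apoptosis from death receptors, lay between 53.8 and 68.5 CPM in all 12 tumors, with group means of 62.2 in Control, 58.0 in ASC, 58.6 in As300 and 59.9 CPM in ASC_As300 (SD 6.16, 2.19, 1.11 and 5.83, n = 3 each). Its ASC effect over both iAs levels was -0.03 on the log2 scale with a 95% interval of -0.17 to 0.11, and a change of 1.5-fold either way lay outside the interval of each of the 3 comparisons with Control. The lowest bound was -0.30, in ASC, and the highest 0.14, in ASC_As300.

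The partners of these genes upstream of RIPK3 were described by 21 death receptor and necroptosis genes, all of them tested. With ASC over both iAs levels 3 rose, against 1.36% of all genes, and none fell (median log2 0.10). They were Tnfsf10, the death ligand TRAIL (log2 1.82, SE 0.25, edgeR adjusted p = 0.00147), Fasl, the ligand of Fas (log2 1.65, SE 0.32, adjusted p = 0.0171), and Tlr3, a receptor for double-stranded RNA (log2 0.91, SE 0.13, adjusted p = 0.00237). Tnfsf10 was at 1.45 to 4.92 CPM in Control, 8.13 to 11.7 CPM in ASC, 1.70 to 2.72 CPM in As300 and 8.04 to 9.64 CPM in ASC_As300. In ASC_As300 against As300, Tlr3 (log2 1.03, adjusted p = 0.0237) and Tnfsf10 (log2 2.02, adjusted p = 0.0175) rose, calls kept in 15 and 17 of 21 alternatives. In As300 against Control only Tradd, an adaptor of TNF receptor signalling, rose among the 21 (log2 0.61, SE 0.13, adjusted p = 0.0436), from 13.7 to 16.9 CPM in Control to 21.7 to 27.7 CPM in As300. The Tradd call was kept in 8 of 21 alternatives and lost without any one Control tumor (adjusted p = 0.0761, 0.10 and 0.11 without replicates 1, 2 and 3) or any one As300 tumor (0.0566, 0.19 and 0.0696), and after the GC correction the log2 change was 0.32. Ripk1, which pairs with RIPK3, was at 51.5 to 58.1 CPM in Control and 45.0 to 48.3 CPM in As300 (log2 -0.25, SE 0.08, adjusted p = 0.10). Adar, whose product edits double-stranded RNA and limits ZBP1, had a log2 change of 0.51 with ASC over both iAs levels (SE 0.08, adjusted p = 0.00226, under 1.5-fold). Fadd and Cflar, the adaptor and the inhibitor of caspase-8, had log2 changes of 0.10 and 0.08 there (adjusted p = 0.84 and 0.81).

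Gsdmd, whose product forms the pore of pyroptosis, was at 60.9, 57.8 and 59.0 CPM in Control and at 85.3, 70.2 and 85.8 CPM in ASC. It was at 57.3, 72.4 and 64.9 CPM in As300 and at 81.9, 89.9 and 86.6 CPM in ASC_As300. Each group with ASC lay above its own counterpart without ASC, although As300 replicate 2 exceeded ASC replicate 2. The change was 1.36-fold in ASC against Control (log2 0.44, SE 0.10, edgeR adjusted p = 0.0705) and 1.45-fold in ASC_As300 against Control (log2 0.54, SE 0.10, adjusted p = 0.0238). In ASC_As300 against As300 it was 1.33-fold (log2 0.41, SE 0.10, adjusted p = 0.10), and over both iAs levels 1.34-fold (log2 0.42, SE 0.07, adjusted p = 0.00564). None of these reached the fold threshold, so Gsdmd was not called, and without Control replicate 1 the changes against Control were 0.47 and 0.56. With iAs alone the log2 change was 0.13 (95% interval -0.09 to 0.35). Of 9 other gasdermin and membrane rupture genes only Gsdme and Ninj1 were expressed enough to test, and neither was called. Ninj1, whose product ruptures the membrane after pore formation, was at 73.0 to 80.5 CPM in Control and 102 to 107 CPM in As300 (log2 0.46, SE 0.08, adjusted p = 0.0401, under 1.5-fold). Calls in As300 against Control were unstable, with no gene of the table called up in 6 of the 12 fits that left out 1 tumor. The alternatives for Ninj1 are not reported here. Gsdme, another pore-forming gasdermin, had a log2 change of 0.01 in As300 against Control (adjusted p = 0.97).

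Casp1, Casp4 and Casp12 encode the inflammatory caspases and lie side by side on the plus strand of chromosome 9 (GRCm38, GENCODE M21), Casp1 at chr9:5298517-5307265, Casp4 at chr9:5308828-5336783 and Casp12 at chr9:5345430-5373032. No exon of any of the 10 genes overlaps an exon of another gene in that annotation. Since Casp1 and Casp12 were called with ASC and Casp4 between them was not, the bases before their starts are shown, from the RefSeq promoter windows of GRCm38.p6, which run from 250 bases before to 50 bases after a start. The stretches end before the annotated first exon. Capitals mark the letters TTCNNNGAA, the core of a gamma-activated site, which were searched for on both strands. The core of an interferon-stimulated response element, written as 2 copies of GAAA with any 2 bases between them, was searched for as well, and no match of either motif overlapped one of the other in these windows.
Casp1 (chr9:5298267-5298516, plus strand): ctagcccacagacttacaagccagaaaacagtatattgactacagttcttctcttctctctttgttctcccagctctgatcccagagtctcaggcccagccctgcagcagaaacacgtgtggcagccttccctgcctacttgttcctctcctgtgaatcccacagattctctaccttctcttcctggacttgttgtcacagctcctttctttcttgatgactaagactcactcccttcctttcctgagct
Casp4 (chr9:5308599-5308827, plus strand): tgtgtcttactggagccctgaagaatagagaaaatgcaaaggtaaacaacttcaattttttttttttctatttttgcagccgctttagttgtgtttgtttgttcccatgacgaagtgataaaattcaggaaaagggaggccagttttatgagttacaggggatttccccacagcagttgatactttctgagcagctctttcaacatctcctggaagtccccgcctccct
Casp12 (chr9:5345226-5345429, plus strand): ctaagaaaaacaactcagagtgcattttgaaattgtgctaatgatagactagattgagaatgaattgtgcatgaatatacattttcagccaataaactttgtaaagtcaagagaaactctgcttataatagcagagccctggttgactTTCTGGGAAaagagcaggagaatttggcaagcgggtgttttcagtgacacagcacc

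The Casp12 window held the first motif at 2 places, beginning 102 and 36 bases before the RefSeq start, the second lying past the printed stretch and reading TTCTGGGAA as the first does. Of 32851 promoter windows, 8.3% held this motif and 0.457% held it 2 or more times. The second motif, present in 3.44% of all windows, was in no window of a member. Windows were found for 8 of the 10 members, not including Zbp1 and Gsdmd. A match describes letters and is neither a bound site nor a cause.

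Casp1, the effector protease of inflammasomes, was at 6.99, 5.74 and 4.34 CPM in Control and at 10.5, 11.3 and 7.02 CPM in ASC. It was at 4.10, 3.72 and 5.05 CPM in As300 and at 9.36, 10.9 and 8.72 CPM in ASC_As300. ASC replicate 3 barely exceeded Control replicate 1, and the other tumors with ASC were clear of those without. Over both iAs levels Casp1 rose 1.95-fold with ASC (log2 0.96, SE 0.16, edgeR adjusted p = 0.00633), and this was called in 20 of 20 alternatives. In ASC_As300 against As300 it rose 2.25-fold (log2 1.17, SE 0.23, adjusted p = 0.0340), but the call was kept in 11 of 21 alternatives and in 4 of the 12 fits that left out 1 tumor, where the log2 change ran from 1.06 to 1.29. Against Control it was 1.69-fold in ASC (log2 0.76, SE 0.23, adjusted p = 0.17) and 1.70-fold in ASC_As300 (log2 0.76, SE 0.23, adjusted p = 0.16), neither of them called. Without Control replicate 1 these log2 changes were 0.94 in both, with adjusted p of 0.12 and 0.13. With iAs alone the log2 change was -0.41 (95% interval -0.90 to 0.09), and the interaction was 0.41 (95% interval -0.29 to 1.12, adjusted p = 0.60). After the GC correction these values were -0.11 and 0.16.

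Casp12, a caspase of the inflammatory group located at the endoplasmic reticulum, was at 28.9, 25.9 and 31.2 CPM in Control and at 45.5, 34.0 and 38.7 CPM in ASC. It was at 20.0, 14.8 and 25.4 CPM in As300 and at 34.7, 40.9 and 43.0 CPM in ASC_As300. As300 tumors were the lowest and lay wholly below Control, as did 15.4% of all genes, and the 6 tumors with ASC were the highest. Over both iAs levels Casp12 rose 1.64-fold with ASC (log2 0.72, SE 0.12, edgeR adjusted p = 0.00748; 20 of 20 alternatives). In ASC_As300 against As300 it rose 1.97-fold (log2 0.98, SE 0.18, adjusted p = 0.0198), kept in 17 of 21 alternatives and lost without As300 replicate 1 or 2 or without ASC_As300 replicate 2 or 3 (adjusted p 0.0782, 0.0646, 0.0896 and 0.10). The changes against Control were 0.46 in both groups with ASC (SE 0.18 and 0.17, adjusted p = 0.24 and 0.25) and -0.51 in As300 (SE 0.18, adjusted p = 0.10). After correction of each tumor for GC content, the change was 0.72 in ASC_As300 (adjusted p = 0.0714) and -0.15 in As300 against Control. The interaction was 0.52 (SE 0.25, unadjusted p = 0.0585, adjusted p = 0.38), and 0.22 after the GC correction.

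Casp4, the caspase that senses cytosolic lipopolysaccharide and the gene between these, ranged over 16.2 to 19.4 CPM in Control and 19.7 to 23.4 CPM in ASC. The range was 10.4 to 19.2 CPM in As300 and 18.6 to 21.2 CPM in ASC_As300. ASC lay wholly above Control and As300, and the other pairs of groups overlapped. Casp4 was not called in any comparison, with a log2 change of 0.36 for ASC over both iAs levels (95% interval 0.08 to 0.64, edgeR adjusted p = 0.28). The interval reached past 1.5-fold at its upper end and near 0 at its lower, and the difference between Casp4 and its neighbours was not tested. With iAs alone the value was -0.26 (adjusted p = 0.42), and 0.03 after the GC correction.

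Of 14 mitochondrial apoptosis genes none was called with ASC (median log2 0.06), and Bax, which permeabilizes mitochondria, rose in As300 against Control (log2 0.61, SE 0.14, edgeR adjusted p = 0.0450). The Bax call was kept in 9 of 21 alternatives, was lost without any one Control tumor (adjusted p = 0.0660, 0.11 and 0.11) and without As300 replicate 2 or 3 (0.19 and 0.0818), and the log2 change was 0.33 after the GC correction.

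Aim2, the inflammasome sensor of cytosolic DNA, was at 9.05, 5.35 and 2.82 CPM in Control and at 7.43, 7.72 and 5.48 CPM in ASC. It was at 4.03, 2.56 and 3.60 CPM in As300 and at 5.88, 7.76 and 7.30 CPM in ASC_As300. Control was the most scattered group, its highest tumor being replicate 1, which also held the most T and B cell marker RNA. ASC_As300 lay wholly above As300 (log2 1.04, SE 0.35, unadjusted p = 0.0108, edgeR adjusted p = 0.30). The ASC effect over both iAs levels was 0.65 (SE 0.24, adjusted p = 0.32), and 0.89 with an adjusted p of 0.0421 without Control replicate 1, where it was called. In ASC against Control the log2 change was 0.26 with all tumors, 0.76 without Control replicate 1 and -0.05 without Control replicate 3. The change in ASC_As300 against Control was 0.28, moving to 0.78 and -0.03 in the same way. In As300 against Control it was -0.76 (unadjusted p = 0.048, adjusted p = 0.20) and -0.25 without Control replicate 1.

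The 11 AIM2-like receptors, a clustered family of interferon-inducible DNA-binding proteins, were all tested. With ASC over both iAs levels 3 rose, against 1.36% of all genes, Ifi204 (log2 1.08, SE 0.20, edgeR adjusted p = 0.0114), Ifi211 (log2 1.06, SE 0.14, adjusted p = 0.00083) and Ifi203 (log2 1.01, SE 0.22, adjusted p = 0.0323), with a median of 0.88 over the 11. The Ifi203 call was kept in 12 of 20 alternatives and in 4 of the 12 fits that left out 1 tumor. Ifi211 also rose in ASC against Control (log2 1.16, adjusted p = 0.0123) and in ASC_As300 against As300 (log2 0.96, adjusted p = 0.0393), kept in 19 and 11 of 21 alternatives. In As300 against Control none was called, and the median was -0.89. All 11 were lower there, 7 of them at an unadjusted edgeR p under 0.05 (13% of all genes). Control replicate 1 was well above the other Control tumors for some, such as Ifi213 (16.7 against 7.62 and 3.84 CPM) and Ifi209 (28.1 against 14.9 and 7.83 CPM). It was not the highest Control tumor for Ifi204, Ifi205, Ifi207 and Ifi211. These genes are paralogs, and how reads shared between them would have been divided is not given in the sources used here, so that single values are uncertain.

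No gene of the 16 other inflammasome sensors and adaptors was called in any comparison, 14 of them being expressed enough to test. With ASC over both iAs levels 6 of the 14 had an unadjusted p under 0.05 and were higher, against 6.93% of all genes, and the median log2 change was 0.25. Nlrp3, the sensor of membrane and ion disturbance, was at 4.47 to 5.35 CPM in Control, 6.43 to 8.34 CPM in ASC, 3.88 to 5.65 CPM in As300 and 5.74 to 6.66 CPM in ASC_As300 (log2 0.52, SE 0.14, edgeR adjusted p = 0.0931). Pycard, the adaptor ASC protein that bridges sensors to caspase-1 and is unrelated to the ASC cells, ranged from 4.38 to 8.02 CPM in Control and from 11.4 to 13.5 CPM in ASC (log2 0.67 over both iAs levels, SE 0.17, adjusted p = 0.0811). Nlrp1b, a sensor of protease activity, had the highest log2 change of the 14 (1.05, SE 0.25, adjusted p = 0.0566). Nlrc4, which acts with the Naip proteins, had 0.17 (SE 0.25, adjusted p = 0.88).

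Il18, a cytokine matured by caspase-1, was among the least abundant of the 10. Its values were 2.23 to 4.22 CPM in Control, 4.15 to 4.41 CPM in ASC, 2.40 to 3.01 CPM in As300 and 2.70 to 4.56 CPM in ASC_As300. Control replicate 2 and ASC_As300 replicate 2 reached the level of the ASC group, and all pairs of groups with Control overlapped. The ASC effect over both iAs levels was 0.45 (SE 0.20, unadjusted p = 0.0447, edgeR adjusted p = 0.44), and Il18 was not called in any comparison. In As300 against Control the log2 change was -0.09 (95% interval -0.70 to 0.52), and -0.24 without Control replicate 1. In ASC and in ASC_As300 against Control it was 0.54 and 0.26, and 0.38 and 0.10 without that tumor.

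Il18bp, the secreted protein that neutralizes interleukin-18 and is induced by interferon gamma, had 8.52, 5.87 and 6.53 CPM in Control and 20.6, 17.3 and 19.4 CPM in ASC. It had 7.56, 7.30 and 6.80 CPM in As300 and 17.8, 21.7 and 23.0 CPM in ASC_As300. Every tumor with ASC exceeded every tumor without. Il18bp rose 2.74-fold in ASC against Control (log2 1.46, SE 0.16, edgeR adjusted p = 0.000781), 2.99-fold in ASC_As300 against Control (log2 1.58, SE 0.16) and 2.81-fold over both iAs levels (log2 1.49, SE 0.12, adjusted p = 1.15e-05). Of the 11 genes of the interleukin-1 family and its receptors, 2 others rose with ASC over both iAs levels. They were Il18rap, a chain of the interleukin-18 receptor (log2 1.10, SE 0.17, adjusted p = 0.00321), and Il1rl1, the interleukin-33 receptor (log2 0.64, SE 0.11, adjusted p = 0.00649). Il1rl1 was at 15.7 to 22.5 CPM in Control, 33.8 to 37.1 CPM in ASC, 15.8 to 21.4 CPM in As300 and 20.4 to 26.2 CPM in ASC_As300. It was called in ASC against Control, but not in ASC_As300 against Control or against As300. Il1b, which caspase-1 also matures, was not called (6.78 to 9.81 CPM in Control and 7.27 to 16.1 CPM in ASC; log2 0.63 over both iAs levels, SE 0.22, adjusted p = 0.26).

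**Figure D3:**
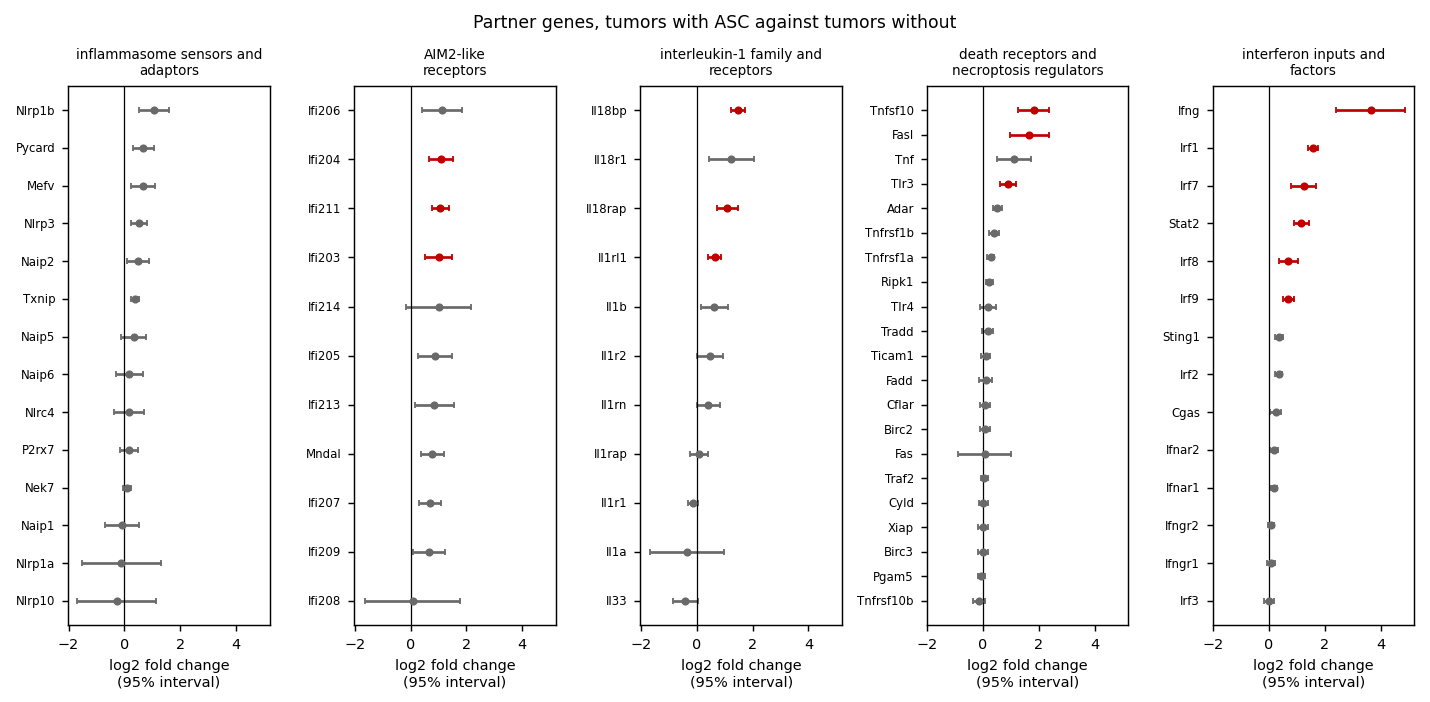
Log2 fold changes with 95% intervals of the partner genes for ASC over both iAs levels (6 tumors with ASC against 6 without), 1 panel per list, red where called, for the genes reported here. Ifng, which was near 0 CPM in tumors without ASC, was at 3.63 and Irf1 at 1.57, and no inflammasome sensor or adaptor was called.

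Of the 15 interferon inputs and factors, all tested, 7 rose with ASC over both iAs levels, against 1.36% of all genes, and none fell (median log2 0.35). Among them were Ifng, Irf1, Irf7, Irf8 and Irf9, the call of Irf8 being kept in 7 of 20 alternatives. Irf1, a transcription factor induced by interferon gamma, was at 50.7 to 68.1 CPM in Control and 143 to 178 CPM in ASC (log2 1.57, SE 0.09). Ifng itself, the interferon made by T and NK cells, was at 0.0868 to 0.23 CPM in Control and 1.72 to 2.31 CPM in ASC. It was at 0 to 0.406 CPM in As300 and 1.86 to 3.52 CPM in ASC_As300. Its values without ASC were near 0, so that the size of its fold change is uncertain.

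Levels can be compared between the genes per exon length. In CPM per kb, Gsdmd averaged 30.6 over the 12 tumors (24.1 to 37.8), Ripk3 27.1 (23.1 to 32.1), Casp8 20.6 (18.6 to 23.7) and Mlkl 20.5 (15.5 to 26.5). Zbp1 averaged 11.1 (2.87 to 20.7), Casp12 8.31 (3.85 to 11.9), Casp4 4.93 (2.81 to 6.31), Casp1 4.89 (2.49 to 7.57), Il18 3.28 (2.17 to 4.43) and Aim2 1.64 (0.73 to 2.59). Ranges of neighbours in this order overlapped throughout. By group, Zbp1 had 4.36 CPM per kb in Control (SD 1.30) and 3.67 in As300 (SD 0.25), below Casp12 in both, but 19.1 in ASC (SD 2.01) and 17.3 in ASC_As300 (SD 4.08), above it. The terminal genes of each pathway, Gsdmd and Mlkl, and the kinase Ripk3 were thus present at higher levels in every tumor than the inflammasome genes Casp1, Aim2 and Il18.

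**Figure D4:**
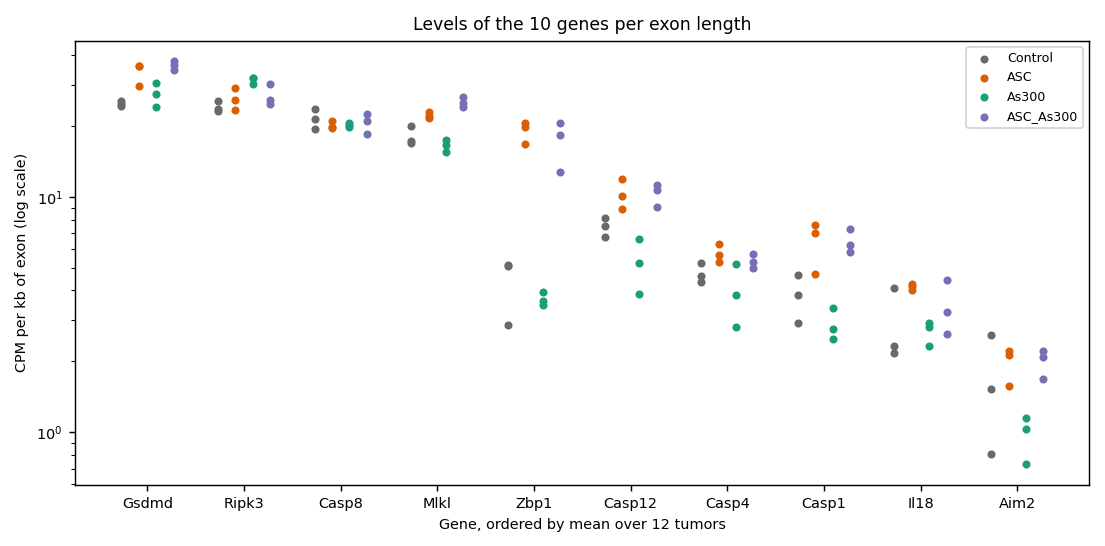
CPM per kb of exon (log axis) of each gene in each tumor, colored by group and ordered by the mean over 12 tumors. Zbp1 had the widest range, from 2.87 to 20.7, and Casp8 the narrowest, from 18.6 to 23.7.

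Similarity over the 12 tumors is given as a description, the tumors sharing groups and hence group differences. The genes most like Zbp1 by Pearson r of log2 CPM included Xaf1 (0.99) and Parp9 (0.99), with r of 0.89 and 0.69 within the 6 tumors with ASC and 0.86 and 0.86 within the 6 without. For Casp1 they were Slfn2 (0.98), Cybb (0.98) and Gbp9 (0.97), Cybb being the phagocyte oxidase subunit, with r of 0.92 and 0.93 within the tumors with and without ASC. For Aim2 they were Pik3cd (0.98), Ikzf1 (0.97) and Itga4 (0.97), genes of leukocytes. Casp12 and Mlkl were most like Inpp1 (0.95) and Sirpb1c (0.95), Gsdmd like Rap1gap2 (0.95), Casp4 like Lipg (0.93), Ripk3 like Glrx5 (0.93), Il18 like Ehd4 (0.89) and Casp8 like Gm28285 (0.82). Among the 10 themselves, Casp4 and Casp12 were the closest pair (0.93 over 12 tumors, 0.57 and 0.94 within the tumors with and without ASC). Casp1 and Aim2 had r of 0.87, and 0.82 and 0.92 within these sets. Zbp1 and Mlkl had r of 0.86 over the 12 tumors, but -0.02 within the 6 with ASC and -0.38 within the 6 without. For Zbp1 and Gsdmd the values were 0.83, -0.12 and -0.19. The likeness of these last pairs over 12 tumors was therefore that of their group levels.

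Among the lists of leukocyte markers, the summed NK cell markers did not overlap between tumors with and without ASC, whereas those of the other leukocyte lists overlapped. The 5 NK cell markers summed to 7.10 to 13.0 CPM in Control, 15.2 to 20.7 CPM in ASC, 4.40 to 8.40 CPM in As300 and 16.3 to 20.4 CPM in ASC_As300. Of the 5, only Klrk1 was itself separated in this way, as were 1.68% of all genes. It was at 8.72 to 12.3 CPM with ASC, the largest part of the sum there, and at 1.45 to 5.87 CPM without. Ncr1 and Klrb1c averaged 1.06 and 1.01 CPM in Control and 0.74 and 1.00 CPM in ASC, and the other 3 were higher in ASC. The 8 T cell markers summed to 12.6 to 66.3 CPM in Control, 45.5 to 55.0 CPM in ASC, 10.2 to 14.3 CPM in As300 and 34.9 to 57.7 CPM in ASC_As300. The highest tumor was Control replicate 1, and the other Control tumors were at 13.6 and 12.6 CPM. None of the 8 had an unadjusted edgeR p under 0.05 in ASC against Control. In ASC_As300 against As300, 7 of the 8 did and were higher (6.33% of all genes), and over both iAs levels 6 (6.93%). The 7 B and plasma cell markers had a median log2 change of -1.18 with ASC over both iAs levels and of -2.72 in ASC against Control, where Control held replicate 1, and none was called. The 10 macrophage markers summed to 1415 to 1820 CPM in Control, 1666 to 2511 CPM in ASC, 1763 to 1900 CPM in As300 and 1869 to 2334 CPM in ASC_As300, and the 7 dendritic cell markers to 24.3 to 40.3, 38.8 to 54.1, 30.0 to 37.0 and 43.0 to 55.1 CPM in the same order. Of these lists, Fcgr1 and C1qb (macrophages), Itgax (dendritic cells), Cd8a (T cells) and Klre1 and Klrk1 (NK cells) rose with ASC over both iAs levels. Ly6a rose as well, as the only 1 of the 10 genes in the stromal list, where 6 were higher, 4 lower and the median log2 change was 0.17. Krt8 fell. The calls of Cd8a and Klre1 were each kept in 10 of 20 alternatives and that of C1qb in 16. In ASC against Control C1qa, C1qb and Fcgr1 rose. In As300 against Control the macrophage marker Cd14 was called (log2 0.59, edgeR adjusted p = 0.0404), but in 8 of 21 alternatives only, and not without any one Control tumor (adjusted p = 0.0660, 0.10 and 0.10) or any one As300 tumor (0.0540, 0.19 and 0.0696). No marker in these 4 lists was at 0 in every tumor, and the 7 neutrophil markers, none of them called, summed to 8.01 to 18.7 CPM, with Mpo at the floor of 12 counts or fewer in all tumors. The part of leukocytes or of other cell types in the changes of Zbp1, Casp1, Casp12 and Mlkl was not tested.

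**Figure D5:**
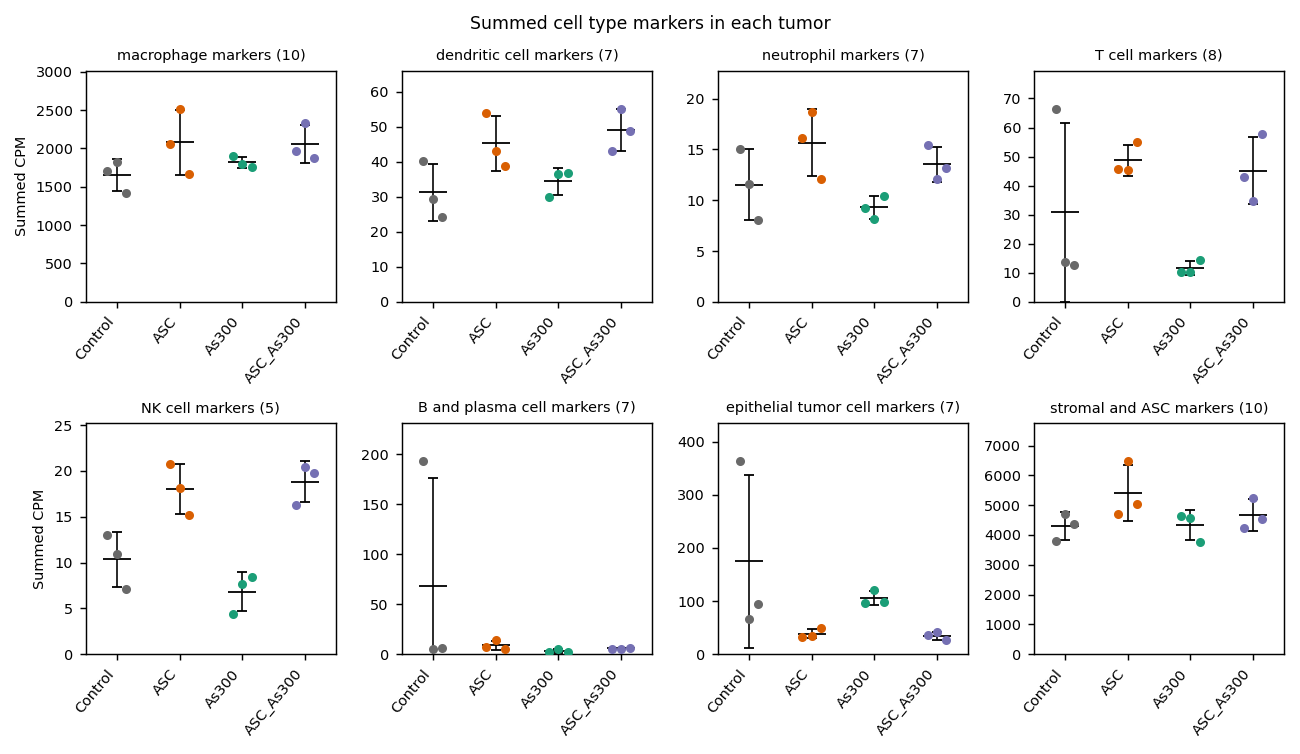
Summed CPM of 8 lists of cell type markers in each tumor (points) with group mean and SD (bars), the number of genes in parentheses. NK cell markers lay at 15.2 CPM or above in all tumors with ASC and at 13.0 CPM or below in all without, while T cell and B and plasma cell markers were highest in Control replicate 1.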

How the data were processed

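RNA of 12 tumors was sequenced as stranded polyA libraries, paired-end. The authors trimmed reads with Cutadapt, aligned with HISAT2 and quantified with StringTie and Ballgown. The deposited values are whole-number counts per Ensembl gene, without normalization. The step that made the counts, the genome build and the annotation are not given in the sources used here. Low counts piled up at 4 (1137 to 1298 genes at 4 in a tumor, 380 to 414 at 5), so 12 counts was taken as the floor, for counting error only. 

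Symbols, lengths and positions came from GENCODE M21 (GRCm38). Genes passing filterByExpr (20818) were fitted with edgeR 4.0.16 in R 4.3.3 (TMM, quasi-likelihood, 1 mean per group, all 12 tumors), and CPM values use TMM-scaled totals. A prior count of 2 was used for log2 CPM. With 3 tumors a group the smallest p of an exact permutation test is 0.1, so that p-values come from edgeR. They measure the spread between tumors of the same group, each of 1 mouse, estimated jointly over all 4 groups and with information shared between genes. In 8 comparisons each treated group was set against Control, ASC_As300 also against either single treatment, and the effects of ASC and iAs and their interaction were estimated over all groups. DESeq2 1.42.0 and 9 further kinds of alternative were run, of which the correction for GC content was added after the data were seen. The scripts were tested on simulated data. Members and gene lists were chosen with earlier results of these data known. Named genes were all 10 members, every called gene of the further lists, up to 4 direct partners in each list, and the 3 genes most like each member. Several of the called cell type markers and similar genes are given without full statistics. Some genes of these lists are not reported here. Flow cytometry and RT-qPCR were not analysed here.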

Additional observations from a re-analysis of the deposited data

How the results depend on the processing

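Of 1201 recomputed fold changes of the 10 genes, 1151 kept their direction and their side of the threshold, and 156 of 165 recomputed counts of called members stayed within 1.5 times the count reported, which allows the loss of 1 of 4. Many of these counts were 0 and stayed 0, which says little of the calls made. This was so in As300 against Control, in ASC_As300 against ASC, for the iAs effect and for the interaction. Between ASC_As300 and As300, 3 instead of 4 were called in several settings. Mlkl was missing with DESeq2, with DESeq2 size factors in edgeR and with the GC correction. It was also missing with counts divided by 4 and with at least 10 counts required in every tumor. With no filter on low counts, Casp1 was missing instead. Zbp1 was called with ASC in all alternatives run, against Control, against As300 and over both iAs levels. With the DESeq2 Wald test, 2 genes were called in ASC against Control and 2 in ASC_As300 against Control, Casp1 being the addition in each (adjusted p = 0.0284 and 0.0293). With no minimum fold change, 3 were called in ASC_As300 against Control and 5 over both iAs levels, Gsdmd and Mlkl being the additions by the construction of that setting. When 1 tumor was left out, 1 to 2 genes were called in ASC_As300 against Control, 1 to 4 in ASC_As300 against As300 and 3 to 4 over both iAs levels. The lowest count, 1 in ASC_As300 against As300, came without As300 replicate 2 or ASC_As300 replicate 3, and 2 were called without As300 replicate 1 or ASC_As300 replicate 2. The 2 in ASC_As300 against Control came without ASC_As300 replicate 1, where Gsdmd reached 0.585 (adjusted p = 0.0376).

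Correction for GC content turned the small changes in As300 against Control of Gsdmd to -0.0058, Casp4 to 0.035, Il18 to 0.17 and Casp8 to 0.023, that of Casp8 in ASC_As300 against Control to 0.0089 and in ASC_As300 against As300 to -0.014, and counts divided by 4 turned the last to -0.0038. Leaving out 1 tumor gave ranges that crossed 0 for Il18 in As300 against Control (-0.24 to 0.28), Aim2 in ASC (-0.050 to 0.76) and in ASC_As300 against Control (-0.032 to 0.78), for the interaction of Zbp1 (-0.064 to 0.30), and for Casp8 in As300 (-0.13 to 0.012) and ASC_As300 against Control (-0.12 to 0.032), over both iAs levels (-0.069 to 0.0050) and in ASC_As300 against As300 (-0.050 to 0.094). None of these values was called, and the cause was not tested. Adjusted p for Ripk3 in As300 against Control ran from 0.00447 to 0.19 over the alternatives, with a fold under 1.5 in each.

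The meaning of the replicate numbers is not given in the sources used here, and pairing by number was not evident. Deviations of same-numbered tumors from their group means had correlations of -0.12 to 0.17, with 2 of 18 pairs over 0.1. Those of differently numbered tumors ran from -0.22 to 0.25. With the replicate block, 3 genes instead of 4 were called in ASC_As300 against As300, Casp1 missing at log2 1.15 (adjusted p = 0.0609), and the other counts of members called stayed as they were. With counts divided by 4, Zbp1, Casp1 and Casp12 were called in the same comparisons as before.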
